A study of Mus musculus with 8 samples.

Results

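The smooth muscle contractile genes followed here are 10 genes that encode the thin filament and its anchorage in vascular smooth muscle cells (VSMC): Acta2, Tagln, Csrp1, Actg2, Tpm1, Tpm2, Cald1, Smtn, Vcl and Hspb1. Every probe whose platform annotation carried 1 of these symbols was taken, which gave 18 of 25669 readable probes and 10 of 16582 genes with a probe. The cells were primary VSMC from male C57Bl6/J mice aged 8 weeks. They were infected with a lentivirus carrying a short hairpin RNA against Uhrf1 (shUHRF1) or a scramble hairpin (shSCR), kept under puromycin for 2 days, and harvested for total RNA at 5 days. Each group held 2 RNA samples, and each RNA sample was measured on 2 Illumina bead arrays, which makes 8 arrays in all. Separate cultures or animals behind the RNA samples are not mentioned in the labels, nor is it stated whether both shUHRF1 samples carried the same hairpin. All p-values therefore reflect the spread among these 4 samples only, and that spread may be technical.

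Contraction of a smooth muscle cell depends on filaments of smooth muscle actin that slide against myosin, with tropomyosin and caldesmon lying along the actin and vinculin anchoring it at the membrane. Many genes of this apparatus are switched on together by serum response factor and its partner myocardin, which act at a short DNA element called the CArG box. VSMC lower these genes when they are placed in culture or when a vessel is injured, a change often called phenotypic modulation. Uhrf1 encodes a protein that reads hemimethylated DNA and brings the maintenance methyltransferase to it.

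Uhrf1 was measured first because it is the target of the hairpin. Its normalized log2 signal was 9.40 and 8.73 in shUHRF1 sample 1 and 8.39 and 8.58 in shUHRF1 sample 2, against 11.51 and 11.53 in shSCR sample 1 and 11.45 and 11.62 in shSCR sample 2 (probe ILMN_2517041). The groups did not overlap, all 4 shUHRF1 arrays being lower, and the fold difference was 6.74 (-2.75 on the log2 scale, SE 0.23, adjusted p = 0.167 by limma). The other Uhrf1 probe, ILMN_2497581, was detected on 0 arrays and not tested, so this difference rests on 1 probe. The median raw signal of an array was between 103.4 and 123.3, and 45.1% to 48.2% of probes were detected. No gene among the 7502 tested passed an adjusted p of 0.05 in limma on averaged arrays (0%), although 593 (7.9%) were higher and 497 (6.62%) lower with an unadjusted p under 0.05. An exact permutation test of 2 samples against 2 cannot give a p below 0.333.

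The arrays of the shUHRF1 samples stood apart in one respect that touches most of the genes below, Smtn and Vcl least. The median size of the difference between the 2 arrays of an RNA sample over all tested probes was 0.283 and 0.253 log2 units in the shUHRF1 samples, against 0.147 and 0.145 in the shSCR samples. On the contractile gene probes that median was 0.814 and 0.832 in the shUHRF1 samples, against 0.129 and 0.131 in the shSCR samples. The second array was the higher one in both shUHRF1 samples for 9 of the 10 genes, where 33.1% of all tested genes showed this. For this reason each contractile gene is given on every array, with the comparison made on averaged arrays and again on the first arrays alone and on the second arrays alone. Deviations from the group mean over all tested probes correlated at r = -0.22 and -0.14 between the 2 arrays of the shUHRF1 samples, against 0.31 and 0.23 for those of the shSCR samples. Each array is part of its own group mean, so unrelated arrays would come out below 0 here. Between samples, the first arrays of shUHRF1 correlated at r = -0.03 and the second at -0.14, against -0.59 and -0.57 for shSCR. The arrays are duplicates of one RNA per the design text, and whether those of shUHRF1 are was not tested. What lies behind these array differences was not tested either.

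Of the 10 contractile genes, 0 passed the adjusted threshold. With an unadjusted p under 0.05, 3 of them (Tagln, Csrp1 and Hspb1) were higher in shUHRF1 cells and 0 were lower, set against 7.9% and 6.62% of all tested genes. On averaged arrays 9 were higher and 1, Cald1, was lower, while 48.5% of all tested genes were higher and 51.5% lower. Both shUHRF1 samples exceeded both shSCR samples for 6 genes (24% of all tested genes) and were under both for 0 genes (26.9%). The 6 were Acta2, Tagln, Csrp1, Tpm1, Vcl and Hspb1. For Acta2 the margin was narrow, with a mean of 14.35 in shUHRF1 sample 2 against 14.33 in shSCR sample 2. All 4 shUHRF1 arrays exceeded all 4 shSCR arrays for Tagln and Csrp1 (8.17% of all tested genes), and for 0 genes were they all lower (8.45%). The median difference over the 10 genes was 0.48 log2 units, beside -0.01 over all tested genes. It was 0.25 on the first arrays alone and 0.78 on the second arrays alone, where the median of all tested genes was -0.02 and -0.01. On the first arrays alone 3 genes (Tagln, Csrp1 and Smtn) had both shUHRF1 samples above both shSCR samples, beside 26.2% of all tested genes, and on the second arrays alone 8 did, all but Cald1 and Smtn, beside 21.2%. Against the shSCR mean the median was 0.53 for shUHRF1 sample 1 and 0.42 for shUHRF1 sample 2. The shSCR samples themselves differed over these genes, with a median of 0.34 for sample 2 minus sample 1. The exact two-sided permutation p was 0.333 for the 6 genes with samples apart and 0.667 for Actg2, Tpm2, Cald1 and Smtn.

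**Figure D1:**
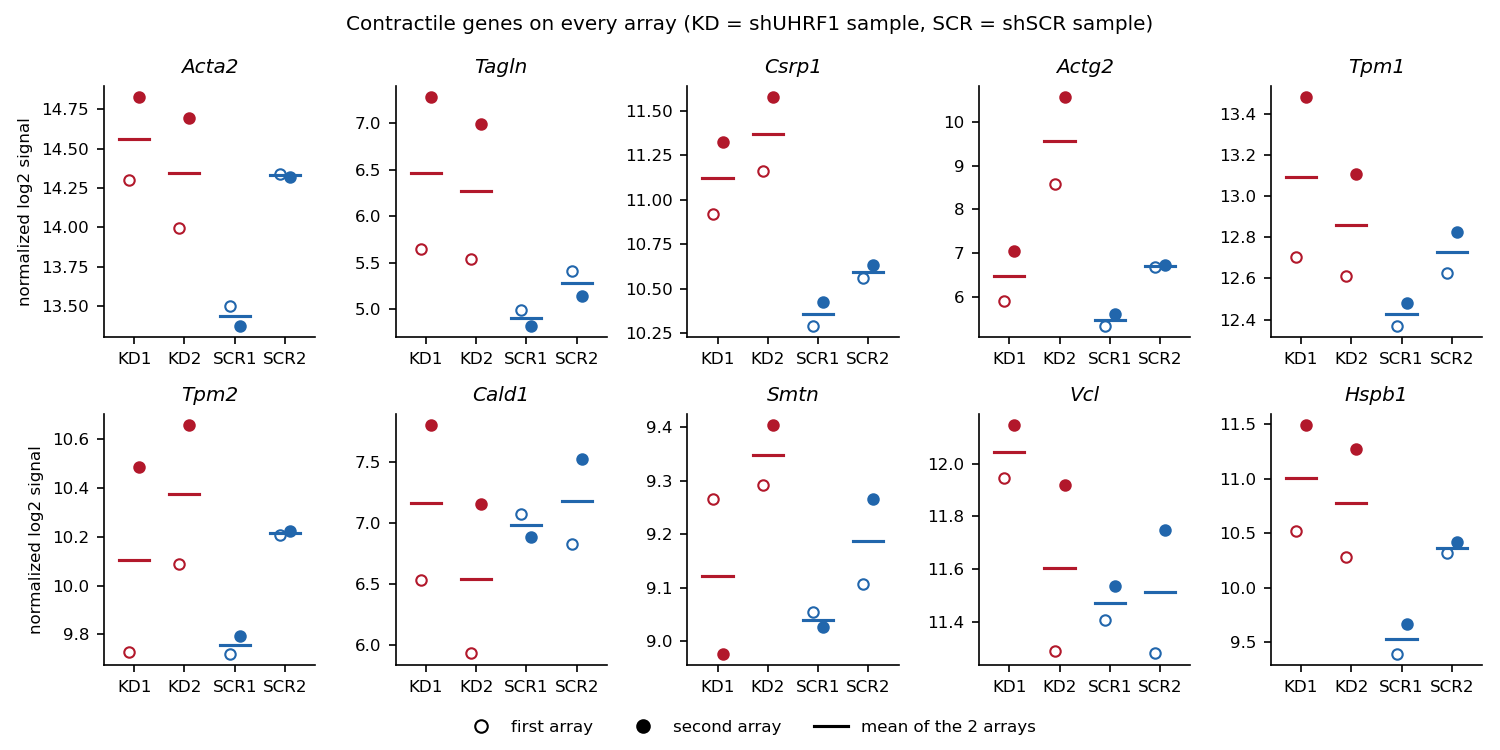
Normalized log2 signal (vertical axes, scaled per gene) of each contractile gene on its brightest tested probe, for shUHRF1 samples 1 and 2 and then shSCR samples 1 and 2. Open points are first arrays, filled points second arrays and bars the mean of the 2 arrays of a sample. The points of a shUHRF1 sample are far apart for most genes, and only Tagln and Csrp1 have every shUHRF1 point above every shSCR point.

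Acta2 encodes smooth muscle alpha-actin, the main actin of the contractile cell, and its promoter is shown because it is the textbook example of control through CArG boxes. Promoter windows of RefSeq on GRCm38.p6, 250 bases before to 50 after the start, were found for 8 of the 10 genes (10 windows). Tagln and Actg2 had no window, so their promoters were not searched. The stretch of the Acta2 window from base -120 to -1 (chr19:34255374-34255493, minus strand) is printed with the Vcl stretch from base -240 to -181 (chr14:20929158-20929217, plus strand), capitals marking the boxes.
Acta2: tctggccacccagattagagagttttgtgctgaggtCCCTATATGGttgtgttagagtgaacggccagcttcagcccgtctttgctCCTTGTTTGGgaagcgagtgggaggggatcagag
Vcl: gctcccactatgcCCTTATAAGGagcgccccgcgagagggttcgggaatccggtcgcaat
The pattern of the CArG box reads the same on both strands, and its exact form was in the Vcl window alone, at -227, beside 1.63% of 32851 promoters. With 1 G or C allowed in its middle, the Acta2 window held 2 boxes, at -84 and -34, which do not overlap. At least 1 box of either form was in 9.98% of all promoters, and 2 or more boxes were in 0.822%. Such matches describe letters in a window of 300 bases, and no binding was measured.

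The brightest Acta2 probe ranked at the 99.5th percentile of tested genes. Probe ILMN_2693895 gave 14.30 and 14.83 in shUHRF1 sample 1 and 14.00 and 14.70 in shUHRF1 sample 2, against 13.50 and 13.38 in shSCR sample 1 and 14.34 and 14.32 in shSCR sample 2. The groups overlapped, since shSCR sample 2 lay between the first and second arrays of both shUHRF1 samples. Acta2 averaged 14.46 ± 0.15 in shUHRF1 samples and 13.89 ± 0.63 in shSCR samples (SD, n = 2 each), a log2 difference of 0.57 (SE 0.30, 1.48-fold, adjusted p = 0.406 by limma). The 95% interval of that difference ran from -0.17 to 1.31. Both shUHRF1 samples exceeded the shSCR mean, sample 1 by 0.68 and sample 2 by 0.46. Without shSCR sample 1 the difference was 0.12, and without shSCR sample 2 it was 1.02.

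The other 3 Acta2 probes moved with the brightest one, with r = 0.966 to 0.994 between probes over the 8 arrays. Probe ILMN_2710353 had a difference of 1.25 (SE 0.42, adjusted p = 0.299 by limma) and gave 11.10, 12.49, 10.88 and 12.24 on the shUHRF1 arrays, against 9.60, 9.93, 11.05 and 11.14 on the shSCR arrays. Probe ILMN_2710354 differed by 1.13 (SE 0.40) with 11.76, 12.94, 11.37 and 12.68 on the shUHRF1 arrays, against 10.40, 10.45, 11.73 and 11.66 on the shSCR arrays. On all 4 probes the level was lowest in shSCR sample 1, and shSCR sample 2 exceeded it by 0.89 to 1.33 log2 units. The shSCR samples lay farther apart than the group means did on all 4 probes. Probe ILMN_2923445 differed by 0.76, with 11.87, 12.73, 11.53 and 12.75 on the shUHRF1 arrays, against 10.85, 10.85, 12.16 and 12.00 on the shSCR arrays. On the first arrays alone the 4 probes differed by 0.20 to 0.66 with overlapping groups, and on the second arrays alone by 0.91 to 1.83 with both shUHRF1 samples above both shSCR samples.

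**Figure D2:**
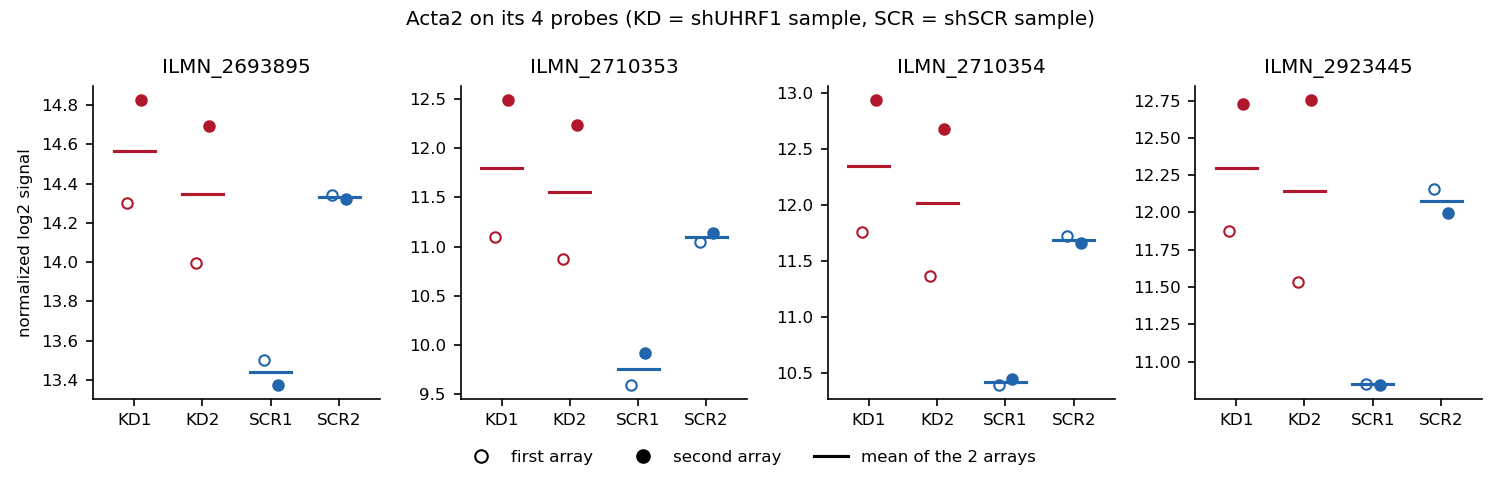
Normalized log2 signal (vertical axes, scaled per probe) of the 4 Acta2 probes for shUHRF1 samples 1 and 2 and then shSCR samples 1 and 2. Open points are first arrays, filled points second arrays and bars the sample means. All 4 probes place shSCR sample 1 lowest and the second arrays of both shUHRF1 samples highest.

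Actg2 encodes smooth muscle gamma-actin, the form found mostly in visceral muscle and in some vessels. Its probe ILMN_2839313 gave 5.90 and 7.06 in shUHRF1 sample 1 and 8.58 and 10.56 in shUHRF1 sample 2, against 5.33 and 5.61 in shSCR sample 1 and 6.67 and 6.74 in shSCR sample 2. Only shUHRF1 sample 2 was above all shSCR arrays, and sample 1 overlapped shSCR sample 2. The difference, 1.93 (SE 0.96, 3.82-fold, adjusted p = 0.389 by limma), was the fourth highest of all tested genes. It was 3.48 for shUHRF1 sample 2 and 0.39 for shUHRF1 sample 1, each against the shSCR mean. On the first arrays alone it was 1.23 and on the second arrays alone 2.64. It was 1.30 with no background correction and 0.86 in the authors' processed values. Without shSCR sample 1 it was 1.32. Detection p-values of Actg2 were 0.0100 and 0.0012 in shSCR sample 1, and 0 on all other arrays. Actg2 correlated less closely with Acta2 over the 8 arrays (r = 0.57) than Hspb1 did (r = 0.95). The actin proteins are close copies of each other, and whether an actin probe also binds transcripts of another actin was not tested.

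Tagln encodes transgelin (SM22-alpha), which binds and bundles actin and is an early marker of the smooth muscle lineage. Probe ILMN_1243652 gave 5.65 and 7.28 in shUHRF1 sample 1 and 5.54 and 6.99 in shUHRF1 sample 2, against 4.99 and 4.82 in shSCR sample 1 and 5.42 and 5.14 in shSCR sample 2. All shUHRF1 arrays were above all shSCR arrays, though the first arrays of shUHRF1 exceeded the higher shSCR sample only narrowly. Tagln averaged 6.36 ± 0.14 in shUHRF1 samples and 5.09 ± 0.26 in shSCR samples (SD, n = 2 each). The difference was 1.27 (SE 0.20, 2.42-fold, unadjusted p = 0.00059, adjusted p = 0.287 by limma), the 11th lowest unadjusted p among the tested genes. This SE and this rank come from averaged arrays. They leave out the gap between the 2 arrays of a sample, 1.63 and 1.45 log2 units in the shUHRF1 samples. When all 8 arrays were fitted, with duplicates of one RNA treated as correlated, the SE was 0.44 (adjusted p = 0.168 by limma).

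The Tagln probe was dim, at the 13.7th percentile of tested genes. Its raw signal was 145, 234, 140 and 244 on the shUHRF1 arrays, against 122, 119, 117 and 126 on the shSCR arrays. Detection p-values were 0.0025 or lower on the shUHRF1 arrays, against 0.0063 to 0.0489 on the shSCR arrays, the last of these close to the limit of 0.05. The shSCR level is thus near background and the size of the difference is uncertain: it was 0.52 with no background correction and 0.24 in the authors' processed values. On the first arrays alone it was 0.39, and on the second arrays alone 2.15.

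Csrp1 encodes cysteine and glycine rich protein 1, a LIM-domain protein that binds alpha-actinin and zyxin. Probe ILMN_1260378 gave 10.92 and 11.33 in shUHRF1 sample 1 and 11.16 and 11.58 in shUHRF1 sample 2, against 10.29 and 10.42 in shSCR sample 1 and 10.56 and 10.63 in shSCR sample 2. No shUHRF1 array overlapped a shSCR array. Csrp1 averaged 11.25 ± 0.17 in shUHRF1 samples and 10.48 ± 0.17 in shSCR samples (SD, n = 2 each), a difference of 0.77 (SE 0.19, 1.70-fold, unadjusted p = 0.00566, adjusted p = 0.287 by limma). It stood at 0.62 on the first arrays alone and 0.92 on the second, with the groups apart on both. Over all alternatives tried its difference stayed between 0.56 and 0.97. With the 8 arrays counted as separate samples it was the 1 contractile gene past the threshold (adjusted p = 0.0422 by limma), in a fit that called 3.24% of all genes and that takes arrays of one RNA sample as independent.

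Cald1 encodes caldesmon, which lies along actin and restrains myosin, and it was the 1 gene with a lower mean in shUHRF1 cells. Probe ILMN_1232081 gave 6.53 and 7.80 in shUHRF1 sample 1 and 5.93 and 7.15 in shUHRF1 sample 2, against 7.08 and 6.89 in shSCR sample 1 and 6.83 and 7.53 in shSCR sample 2. The shUHRF1 arrays held both the lowest and the highest value. The difference of -0.23 (SE 0.24, adjusted p = 0.664 by limma) was -0.73 on the first arrays, where both shUHRF1 samples lay below both shSCR samples, and 0.27 on the second, where they overlapped. The other probe, ILMN_2804261, gave 6.23, 7.21, 5.69 and 6.66 on the shUHRF1 arrays, against 6.22, 6.17, 6.91 and 6.62 on the shSCR arrays. The groups overlapped on it too. Its difference was -0.03 on averaged arrays, -0.60 on the first arrays and 0.54 on the second.

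Smtn encodes smoothelin, an actin-binding protein found in fully contractile cells, and had 3 tested probes. Probe ILMN_2695181 gave 9.27 and 8.98 in shUHRF1 sample 1 and 9.29 and 9.40 in shUHRF1 sample 2, against 9.05 and 9.03 in shSCR sample 1 and 9.11 and 9.27 in shSCR sample 2. These values overlapped, and the difference was 0.12 (SE 0.18, adjusted p = 0.753 by limma). Probe ILMN_2955973 gave 8.82, 8.78, 8.97 and 9.06 on the shUHRF1 arrays, against 8.67, 8.71, 8.88 and 8.77 on the shSCR arrays, a difference of 0.15 (SE 0.18). Probe ILMN_2621581 gave 5.46, 6.03, 5.59 and 5.94 on the shUHRF1 arrays, against 5.81, 5.60, 5.95 and 5.10 on the shSCR arrays, a difference of 0.14 (SE 0.17). The arrays overlapped on both. The dimmer ILMN_2621581 did not follow ILMN_2695181 over the 8 arrays (r = -0.34), and its difference was -0.36 on the first arrays and 0.64 on the second. Among the brightest probes, Smtn was the single exception to the higher second arrays.

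The tropomyosins Tpm1 and Tpm2 encode coiled-coil proteins that wrap the actin filament and gate its contact with myosin. Tpm1, on probe ILMN_3007072, gave 12.70 and 13.48 in shUHRF1 sample 1 and 12.61 and 13.11 in shUHRF1 sample 2, against 12.37 and 12.48 in shSCR sample 1 and 12.63 and 12.82 in shSCR sample 2. The second shUHRF1 arrays were above all shSCR arrays and the first ones were not. The difference in Tpm1 was 0.40 (SE 0.19, adjusted p = 0.379 by limma), with 0.16 on the first arrays and 0.64 on the second.

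Tpm2, on probe ILMN_2487170, gave 9.73 and 10.48 in shUHRF1 sample 1 and 10.09 and 10.66 in shUHRF1 sample 2, against 9.72 and 9.79 in shSCR sample 1 and 10.21 and 10.22 in shSCR sample 2. Its groups overlapped, and the difference of 0.25 (SE 0.22, adjusted p = 0.594 by limma) turned to -0.06 on the first arrays and was 0.56 on the second. Of the other Tpm2 probes, ILMN_2787172 was detected on no array. Its detection p-values were 0.0714 to 0.593 on the shUHRF1 arrays, against 0.259 to 0.932 on the shSCR arrays. ILMN_2482209 was detected on 3 shUHRF1 and 2 shSCR arrays and was not tested. It gave 4.87, 4.92, 4.69 and 4.84 on the shUHRF1 arrays, against 4.60, 4.74, 5.08 and 5.56 on the shSCR arrays. All but the last were close to the dimmest detected signals. The last, on the second array of shSCR sample 2, had a detection p of 0.0050, where the dimmest detected signal was 4.83. The other 16 of the 18 probes were detected on all 8 arrays.

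Vcl encodes vinculin, which ties actin filaments to integrins at focal adhesions and dense plaques. Probe ILMN_2419138 gave 11.94 and 12.15 in shUHRF1 sample 1 and 11.29 and 11.92 in shUHRF1 sample 2, against 11.41 and 11.54 in shSCR sample 1 and 11.28 and 11.75 in shSCR sample 2. Only sample 1 of shUHRF1 lay wholly above shSCR. The difference was 0.33 (SE 0.20, adjusted p = 0.460 by limma), 0.55 for shUHRF1 sample 1 and 0.11 for shUHRF1 sample 2. Vcl is the gene with the exact CArG box shown above.

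Hspb1 encodes a small heat shock protein that binds actin and, when phosphorylated, affects filament assembly in smooth muscle. Probe ILMN_2706269 gave 10.52 and 11.49 in shUHRF1 sample 1 and 10.28 and 11.27 in shUHRF1 sample 2, against 9.40 and 9.67 in shSCR sample 1 and 10.32 and 10.42 in shSCR sample 2. The arrays overlapped through the first array of shUHRF1 sample 2, which was just under both arrays of shSCR sample 2. Hspb1 averaged 10.89 ± 0.16 in shUHRF1 samples and 9.95 ± 0.59 in shSCR samples (SD, n = 2 each), a difference of 0.94 (SE 0.29, 1.92-fold, unadjusted p = 0.0174, adjusted p = 0.294 by limma). Without shSCR sample 1 it was 0.52, and without shSCR sample 2 it was 1.36. The first arrays alone gave 0.54 and the second arrays alone 1.34.

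**Figure D3:**
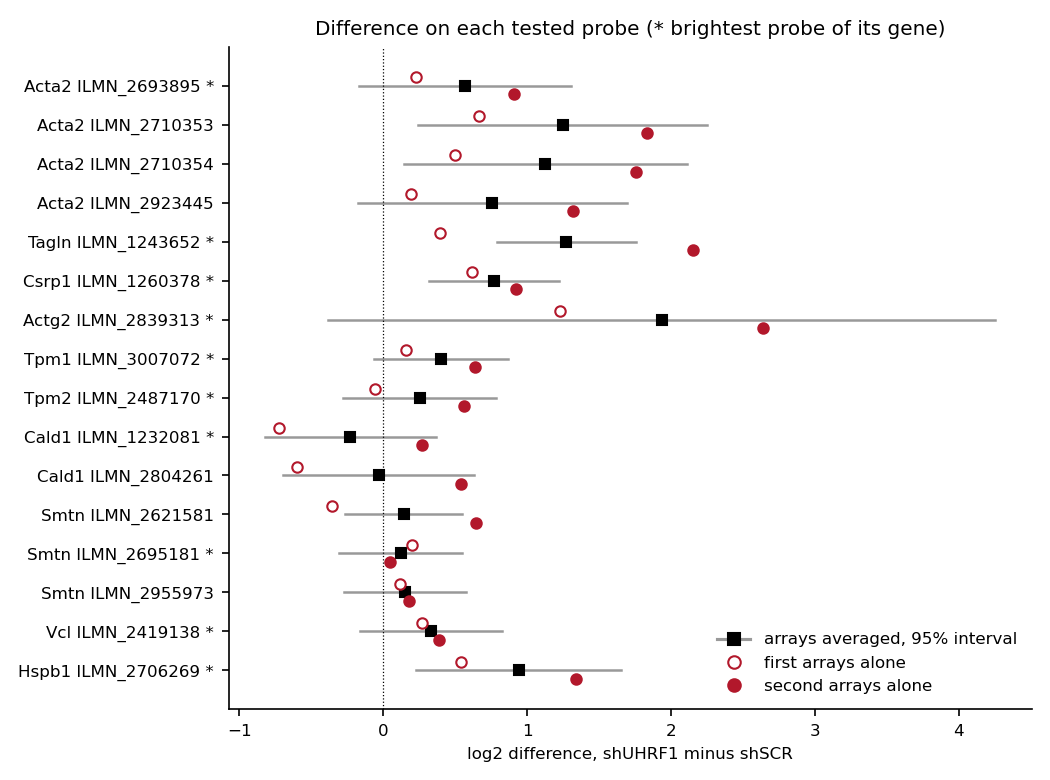
Log2 difference, shUHRF1 minus shSCR (horizontal axis), for the 16 tested contractile gene probes. Squares with lines are averaged arrays with the 95% interval of the limma fit, open points the first arrays alone and filled points the second arrays alone. Second arrays lie to the right of first arrays on all probes but Smtn ILMN_2695181, and the first-array points of both Cald1 probes, Tpm2 and Smtn ILMN_2621581 lie left of 0.

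The gap between the 2 arrays of a sample was itself compared between groups, a comparison added after the data had been seen. For Tagln the second array exceeded the first by 1.63 and 1.45 log2 units in the shUHRF1 samples, while it was lower by 0.17 and 0.28 in the shSCR samples. Limma on these 4 within-sample gaps gave Tagln a difference of 1.76 (SE 0.19, adjusted p = 0.0507), which did not pass. It called 14 of all tested genes (0.187%) and 0 contractile genes. At an unadjusted p under 0.05 the gap was larger in shUHRF1 for 7 of the 10 contractile genes, beside 7.09% of all tested genes. Csrp1, Smtn and Vcl were the others, with differences in gap of 0.31, -0.15 and 0.12. Across all tested genes the gaps of both shUHRF1 samples correlated at r = 0.569, and those of both shSCR samples at r = 0.168, as a description over genes, which are not independent.

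**Figure D4:**
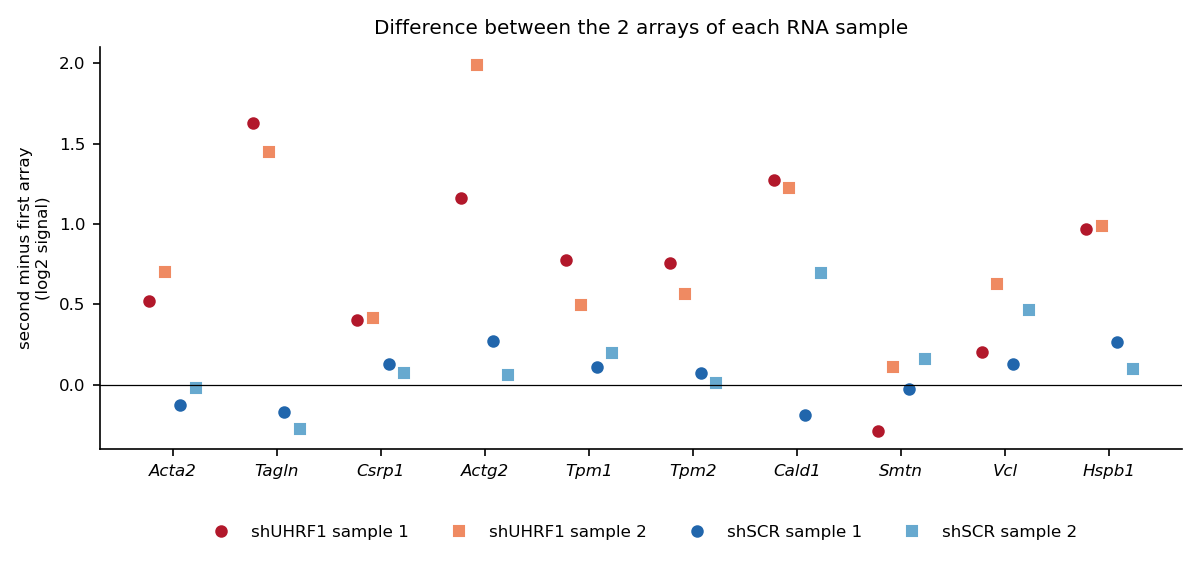
Second minus first array of each RNA sample (vertical axis, log2 signal) for the 10 contractile genes on their brightest tested probe. Warm colours are the shUHRF1 samples and blue the shSCR samples. Both shUHRF1 samples are above 0 for every gene but Smtn, and by 1.16 to 1.99 for Actg2, while the shSCR gaps of the 10 genes run from -0.28 for Tagln to 0.70 for Cald1, the next highest being 0.47 for Vcl.

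Likeness among the contractile genes was graded over the 8 arrays. Acta2, Hspb1, Tpm1 and Tagln followed each other with r = 0.84 to 0.95. The lowest value was that of Cald1 with Smtn (r = -0.36). Since the arrays of a sample share RNA and all arrays share the 2 groups, these values describe likeness only. Outside the list, the profiles closest to Acta2 were those of Lbh (r = 0.978), Parm1 (r = 0.975), Chpf (r = 0.975), Slc39a13 (r = 0.970) and Tnc (r = 0.970). Closest to Tagln were Tnfrsf22 (r = 0.961), Srpr (r = 0.955), Ddr1 (r = 0.948), Stk4 (r = 0.947) and Tpd52l1 (r = 0.947).

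Other genes of the mature contractile cell were read from the same fit. Of 40 other smooth muscle genes listed, 32 had a probe and only 12 were tested. Of these, 8 were higher and 4 lower in shUHRF1 cells (48.5% and 51.5% of all tested genes), with a median difference of 0.12. Svil, among the higher, passed the filter through shUHRF1 alone (detected on 4 shUHRF1 and 3 shSCR arrays). On the first arrays alone 8 were higher (median 0.07), and on the second arrays alone 9 (median 0.25). Over all 7502 tested genes these counts were 3610 and 3625. Of the 12 genes 0 passed the adjusted threshold, and 3 were among those higher with an unadjusted p under 0.05 (7.9% of all tested genes). Myh11, the smooth muscle myosin heavy chain, and Cnn1, the actin-binding protein calponin, went undetected on all 8 arrays. Fhl1, a LIM-domain protein, had the largest difference, 0.82 (SE 0.23), with 11.81, 12.17, 11.21 and 11.59 on the shUHRF1 arrays, against 10.88, 10.79, 10.87 and 10.95 on the shSCR arrays, so the groups did not overlap. The chaperone Cryab differed by 0.68 (SE 0.24), the LIM protein Crip2 by 0.67 (SE 0.25), and the caveolar protein Cav1 by -0.57 (SE 0.28). Crip2 did not overlap either, so 2 of the 12 had every shUHRF1 array above every shSCR array (8.17% of all tested genes).

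Cytoskeletal genes that all cells use served as a comparison. Of 22 tested, 15 were higher and 7 lower (48.5% and 51.5% of all tested genes), with a median of 0.13. On the first arrays alone 11 were higher (median -0.002), and on the second arrays alone 18 (median 0.20). Over all 7502 tested genes these counts were 3610 and 3625. Among the 22 genes 0 passed the adjusted threshold. Those higher with an unadjusted p under 0.05 were 2, Myh10 (0.58, SE 0.21) and Limk1 (0.54, SE 0.20), beside 7.9% of all tested genes. Cnn3 and Myl12b each differed by 0.32. Every shUHRF1 array was above every shSCR array for 2 genes, Myh10 and Myl12b (8.17% of all tested genes). Myh10 is the embryonic nonmuscle myosin and Limk1 a kinase that inactivates cofilin. The second array was higher in both shUHRF1 samples for 10 of these 22 genes (45.5%) and 7 of the 12 other smooth muscle genes (58.3%). That share was 33.1% of all tested genes, and 40% of both the regulators and the synthetic state genes described below.

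Regulators of the contractile program were mostly dim. Of 11 with a probe, 5 were tested, 4 higher and 1 lower (48.5% and 51.5% of all tested genes). Of these, 0 had an unadjusted p under 0.05. Srf, which binds the CArG box, differed by 0.10 (SE 0.19), and Klf4, a repressor of contractile genes, by 0.11 (SE 0.23). Klf5 differed by 0.28 (SE 0.32) and Gata6 by 0.22 (SE 0.24). These signs depended on the arrays, with 3 of the 5 higher on the first arrays alone and 2 on the second. Over all 7502 tested genes these counts were 3610 and 3625. On the first and the second arrays alone Gata6 differed by 0.68 and -0.24, and Klf4 by 0.37 and -0.15. Klf5 differed by 0.16 and 0.40, and Srf by -0.002 and 0.21. No array detected Myocd, which encodes myocardin.

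Genes of the synthetic state are those that modulated VSMC express as contractile genes decline. Of 10 tested, 8 were higher and 2 lower (48.5% and 51.5% of all tested genes), with a median of 0.37. On the first arrays alone 7 were higher (median 0.32), and on the second arrays alone 6 (median 0.65). Over all 7502 tested genes these counts were 3610 and 3625. Among the 10 genes 0 passed the adjusted threshold. Those higher with an unadjusted p under 0.05 numbered 5, beside 7.9% of all tested genes. Every shUHRF1 array was above every shSCR array for 3 genes, beside 8.17% of all tested genes. The matrix glycoprotein gene Tnc differed by 1.62 (SE 0.46), the matrix protease gene Mmp3 by 1.46 (SE 0.35), and Mgp, an inhibitor of calcification, by 1.31 (SE 0.50). On the first and the second arrays alone Tnc differed by 0.73 and 2.52, Mmp3 by 0.85 and 2.07, and Mgp by 1.46 and 1.15. Mmp3 was 7.05 on the first array of shUHRF1 sample 1, under every shSCR array (7.09 to 7.55). Mgp was low in shSCR sample 2, with 10.51 and 10.54, against 12.20 and 12.15 in shSCR sample 1. Tnc gave 8.18, 9.44, 7.39 and 9.11 on the shUHRF1 arrays, against 6.40, 5.98, 7.72 and 7.53 on the shSCR arrays, the same low shSCR sample 1 as Acta2. Some of these genes stand on other lists too, among them Myh10.

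Markers of other cells that such a culture could hold were summed as raw signal on each array. The sums took 1 probe per gene, undetected genes included, without background correction. A gene counted as detected if any of its probes had a detection p under 0.05 on at least 1 array. With array medians of 103.4 to 123.3, much of the endothelial, macrophage and striated muscle sums is background. Only 4 endothelial, 2 macrophage and leukocyte and 1 striated muscle genes were tested. The smooth muscle markers summed to 17692 to 31048 on the shUHRF1 arrays, against 12230 to 22487 on the shSCR arrays, with 5 of 7 detected and the defining genes Myh11 and Cnn1 not detected. Most of that sum is the Acta2 probe ILMN_2693895 already described, with a raw signal of 16392 to 29450 on the shUHRF1 arrays, against 11046 to 21240 on the shSCR arrays, so it adds little on the other markers. Fibroblast and adventitia markers, 9 of 10 detected, summed to 3848 to 5441 on the shUHRF1 arrays, against 3316 to 4093 on the shSCR arrays. Thy1 was the brightest of them, with log2 signals of 11.10, 11.57, 11.55 and 11.80 on the shUHRF1 arrays, against 11.28, 11.29, 11.24 and 11.32 on the shSCR arrays. It differed by 0.22, and the sum follows it more than the dimmer markers. Their 6 tested genes had a median difference of 0.32, which was -0.25 for shUHRF1 sample 1 and 0.83 for shUHRF1 sample 2. Scara5 passed the filter through shUHRF1 alone, being detected on 4 shUHRF1 and 2 shSCR arrays, so its higher value is partly a matter of selection. Dpt and Cd34 passed through shSCR alone (3 shUHRF1 and 4 shSCR arrays). Between the arrays of the shUHRF1 samples the 6 genes ran opposite to most contractile genes. Their median second minus first array was -0.74 in shUHRF1 samples, against -0.04 in shSCR samples. The second array was the higher one in both shUHRF1 samples for 1 of these 6 genes (16.7%), which was Thy1. Their median difference was 0.55 on the first arrays alone, with 6 of 6 genes higher in shUHRF1, and 0.13 on the second arrays alone, with 4 of 6 higher. Their part in the contractile gene differences was not tested. Endothelial markers were detected for 6 of 10 genes, with sums of 1547 to 1982 on the shUHRF1 arrays, against 1563 to 1659 on the shSCR arrays, and Cdh5, Tie1, Vwf and Emcn were not detected. Macrophage and leukocyte markers, 3 of 8 detected, summed to 1146 to 1362 on the shUHRF1 arrays, against 1207 to 1349 on the shSCR arrays, and Ptprc, Adgre1 and Itgam were among those not detected. Striated muscle markers, 7 of 14 detected, summed to 1667 to 1992 on the shUHRF1 arrays, against 1569 to 1744 on the shSCR arrays, and Myh6, Myh7, Ttn and Ckm were among those not detected. In bulk RNA, a change in the share of cells of one type and a change in the RNA each cell makes cannot be told apart.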

How the data were processed

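Total RNA of 4 samples, 2 shUHRF1 and 2 shSCR, was measured on 8 arrays, 2 per RNA sample. Groups follow the shRNA in the labels, and the titles number samples and arrays. The deposited intensity is an average bead signal per probe, in linear units. Per the file headers each value has a detection p-value. The submitters' processing notes name GenomeStudio 2011.1 and lumi, and the sources used here do not say whether background was subtracted. A second deposited table holds values on a scale like log2, with the authors' transform not stated. Its median was 7.86, its array deviations correlated with those used here at r = 0.953 to 0.965, and it served as an alternative.

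Of 25671 probes, 2 with unreadable entries were left out. 1 of these has its values shifted, so that the deposited detection columns of the second arrays hold other values there. 23950 probes carried 1 gene symbol. Signals were corrected by normexp with an offset of 16, quantile-normalized and log2-transformed (neqc, limma 3.58.1, R 4.3.3). Testing took the 10880 probes detected (p under 0.05) on every array of 1 group or both. Arrays of an RNA sample were averaged, groups compared with lmFit and eBayes, and p-values adjusted by Benjamini-Hochberg over all tested probes. A gene's value is that of its brightest tested probe by mean signal. The log2 differences are shUHRF1 minus shSCR, with the moderated SE. The number of RNA samples, 2 per group, limits the precision.

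The members and lists were chosen with earlier results of these data known. Beside the contractile genes, the text names Uhrf1, Myh11 and Cnn1, the 4 tested genes with the largest absolute difference of each list (other smooth muscle genes, cytoskeletal genes, regulators and synthetic state genes), and the 5 most like Acta2 and Tagln. Other names (Myocd, Thy1, undetected markers, and Svil, Scara5, Dpt and Cd34 for how they passed the filter) were chosen after their values were seen. Alternatives changed the background correction, offset, normalization, filter, probe rule, arrays used, blocks and array weights, and left out each sample. The script was tested on simulated data. Figures were drawn with matplotlib 3.10.9.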

Additional observations from a re-analysis of the deposited data

How the results depend on the processing

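0 contractile genes passed the threshold on averaged arrays and in 19 of 21 alternatives. 1 (Csrp1) passed with the 8 arrays as separate samples (243 of all genes) and with a replicate block of array number over 8 arrays (255 of all genes, Csrp1 adjusted p = 0.0409 by limma). The count over all genes was 0 on averaged arrays, where 1090 had an unadjusted p under 0.05. It was 1 on the second arrays alone, 1 with shUHRF1 from its second arrays alone, 3 with the RNA sample as a random block (correlation 0.192) and 1 with a replicate block of RNA sample number. Same-numbered samples did not deviate together (r = -0.15), so the numbers were not taken to pair them. The r of -0.22 and -0.14 between arrays of a shUHRF1 sample cannot be set beside this value, since unrelated arrays of a group come out below 0. With crossed numbers, chosen after seeing the data, the block called 2 genes.

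The count of contractile genes with a higher mean in shUHRF1 was 8 to 10 in all alternatives. Their median of 0.48 was 0.25 on the first arrays alone, 0.78 on the second, 0.22 with shUHRF1 from its first arrays and both shSCR arrays, 0.80 with shUHRF1 from its second, and 0.28 to 0.72 when 1 sample was left out, lowest without shSCR sample 1. The sign turned for Tpm2, to -0.056 on the first arrays and -0.078 with shUHRF1 from its first arrays, and for Cald1, to 0.27 on the second arrays, 0.40 with shUHRF1 from its second arrays and -0.54 to 0.085 when 1 sample was left out, the highest without shUHRF1 sample 2. The cause was not tested. Without 1 sample, the lone sample is assumed to vary like the other group. Over all alternatives Acta2 ranged from 0.12 to 1.02, Tagln from 0.24 to 2.15, Actg2 from 0.39 to 3.48 and Hspb1 from 0.45 to 1.43.

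The comparison rests on 2 samples per group. The arrays of a shUHRF1 sample differ more than those of a shSCR sample, and the spread between averaged samples does not show this. The dim probes of Tagln and of Actg2 in shSCR sample 1 limit the size of their differences.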
